A study of Mus musculus with 12 samples.

Results

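The 9 genes described here encode enzymes that make, phosphorylate or consume NAD: Naprt, Nampt, Nmnat1, Nmnat2, Nmnat3, Nadk, Nadsyn1, Sarm1 and Parp1. They were chosen by name, with their difference between the groups already known, and all 9 were found among the 14317 genes of the deposited table. The tissue was cortical penumbra, from the hemisphere of the occlusion. It was taken from 6 tMCAO/R mice, in which a nylon suture had blocked the artery for 60 min before 24 h of reperfusion, and from 6 Sham mice, which had a sham operation. All 12 mice belonged to the inbred laboratory strain C57BL/6J and were given as 8-week-old males, with no transgene or further agent in either group, and each gave 1 poly(A) RNA-seq library.

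NAD carries electrons in energy metabolism and is also cut up as a substrate by signalling enzymes. Mammalian cells make it along a few routes: from nicotinic acid through NAPRT (the Preiss-Handler route, which NADSYN1 completes), from nicotinamide through NAMPT (the salvage route), from tryptophan (the de novo route) and from nicotinamide riboside. The NMNAT enzymes serve all of these routes. In injured axons, loss of the short-lived NMNAT2 lets SARM1, an NAD-cleaving enzyme, destroy the remaining NAD, and the axon then breaks down. PARP1, which DNA breaks switch on, is the other large consumer of NAD in ischemic brain.

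The libraries held 13057288 to 14988265 fragments per tMCAO/R mouse and 13496273 to 15808212 per Sham mouse. The library of tMCAO/R mouse 4 stood apart. It correlated with the other tMCAO/R libraries at a median Spearman coefficient of 0.908, where those had 0.964 to 0.974, and 8.68% of its fragments were mitochondrial, compared with 2.85% to 4.66% in the other 5 and 5.29% to 8.50% in Sham mice. For the 9 NAD genes, calls that it moves are given also without it, and so are calls that genes of the lists below gain. Differences of list genes are given with it unless stated. The groups also differed in markers of brain region. In the test described below, 17.8% of all tested genes were called lower and 17.8% higher. Of 12 tested hippocampal markers, 11 were lower in tMCAO/R mice (adjusted p below 0.01, limma), with a summed level of 53.3 to 72.3 FPKM in tMCAO/R mice, below the 267 to 387 FPKM of Sham mice. Of 11 tested striatal markers, 11 were higher (57.7 to 545 FPKM in tMCAO/R mice, 27.3 to 37.4 FPKM in Sham mice), as were 8 of 10 tested markers of the cerebral cortex (92.0 to 141 FPKM in tMCAO/R mice, 40.1 to 50.7 FPKM in Sham mice). Among cell type markers, 6 of 10 tested oligodendrocyte genes were lower (415 to 760 FPKM in tMCAO/R mice, 761 to 1758 FPKM in Sham mice). Of 10 tested microglial genes, 5 were lower and 1 was higher (58.4 to 186 FPKM in tMCAO/R mice, 156 to 202 FPKM in Sham mice). Of 10 tested neuronal genes, 4 were higher and 1 was lower (932 to 1260 FPKM in tMCAO/R mice, 890 to 1062 FPKM in Sham mice). Astrocyte markers were mixed, with 2 of 10 tested higher and 3 lower, Gfap among the lower (log2FC -1.49, adjusted p = 0.000821, limma). Endothelial markers had 3 higher and 3 lower of 8 tested. Pericyte and smooth muscle markers had 1 higher and 1 lower of 5 tested, and blood leukocyte markers 0 called of 3. Red cell markers were lower in 5 of 5 tested (72.2 to 431 FPKM in tMCAO/R mice, 353 to 554 FPKM in Sham mice). Choroid plexus markers were lower in 2 of 4 tested, and their sums did not overlap (11.1 to 16.3 FPKM in tMCAO/R mice, 43.6 to 1905 FPKM in Sham mice), and ependymal markers were lower in 3 of 4 (1.51 to 7.43 FPKM in tMCAO/R mice, 6.23 to 22.1 FPKM in Sham mice). Leaving out tMCAO/R mouse 4 moved some of these counts: 6 neuronal genes were then higher, 7 oligodendrocyte genes lower and 3 astrocyte genes higher. It also left 2 ependymal genes lower and 7 cortical genes higher. No gene of these lists that the table holds was at 0 in every library. The Y-linked gene Ddx3y had 5.49 to 12.1 FPKM in tMCAO/R mice but stood at 0 in all 6 Sham mice, so the libraries labelled Sham did not match the described sex. Ddx3y and the summed hippocampal, striatal, cortical, oligodendrocyte and choroid plexus markers each separated all tMCAO/R mice from all Sham mice. Such differences coincide with the groups and cannot be told apart from tMCAO/R itself. Whether any of them has a part in the values below was not tested. In bulk tissue, fewer cells of a type and less RNA per cell cannot be told apart.

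Differences are given on the log2(FPKM + 1) scale as tMCAO/R minus Sham with the standard error (SE) of limma. FPKM are fragments scaled to the length of the gene and to the total of the library, and adding 1 understates the difference of genes with low FPKM. The lengths that the deposited FPKM imply equal the GENCODE exonic length in 376 of 14317 genes. For Naprt 4743 bases are implied, where GENCODE gives 2493. On the GENCODE length its means were 1.19 FPKM in tMCAO/R mice and 4.78 FPKM in Sham mice. The minimum, the added 1 and the percentiles rest on the authors' lengths. The test took the 11743 genes that reached 0.5 FPKM in 6 libraries or more, and rose and fell are used of genes with an adjusted p below 0.01. Of the 9 NAD genes, 7 were above this minimum. Naprt was lower and passed the threshold, and the other 6 did not pass it. By the same rule, 17.8% of all tested genes were called lower and 17.8% higher (35.6% in all). At an unadjusted p below 0.05, 2 of the 7 passed, Naprt and Parp1, both lower. The share of all tested genes at that cut-off was not counted but is at least 35.6%, so this count does not set the NAD genes apart. With limma-voom on the recovered fragments, which took in all 9, Naprt was again the only one called, where 32.8% of all genes were called. Without tMCAO/R mouse 4, Naprt and Nampt were called lower by limma, where 21.3% of tested genes were called lower and 21.9% higher. Since these genes were chosen with this comparison known, their differences are descriptions, and no p is given for them.

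**Figure D1:**
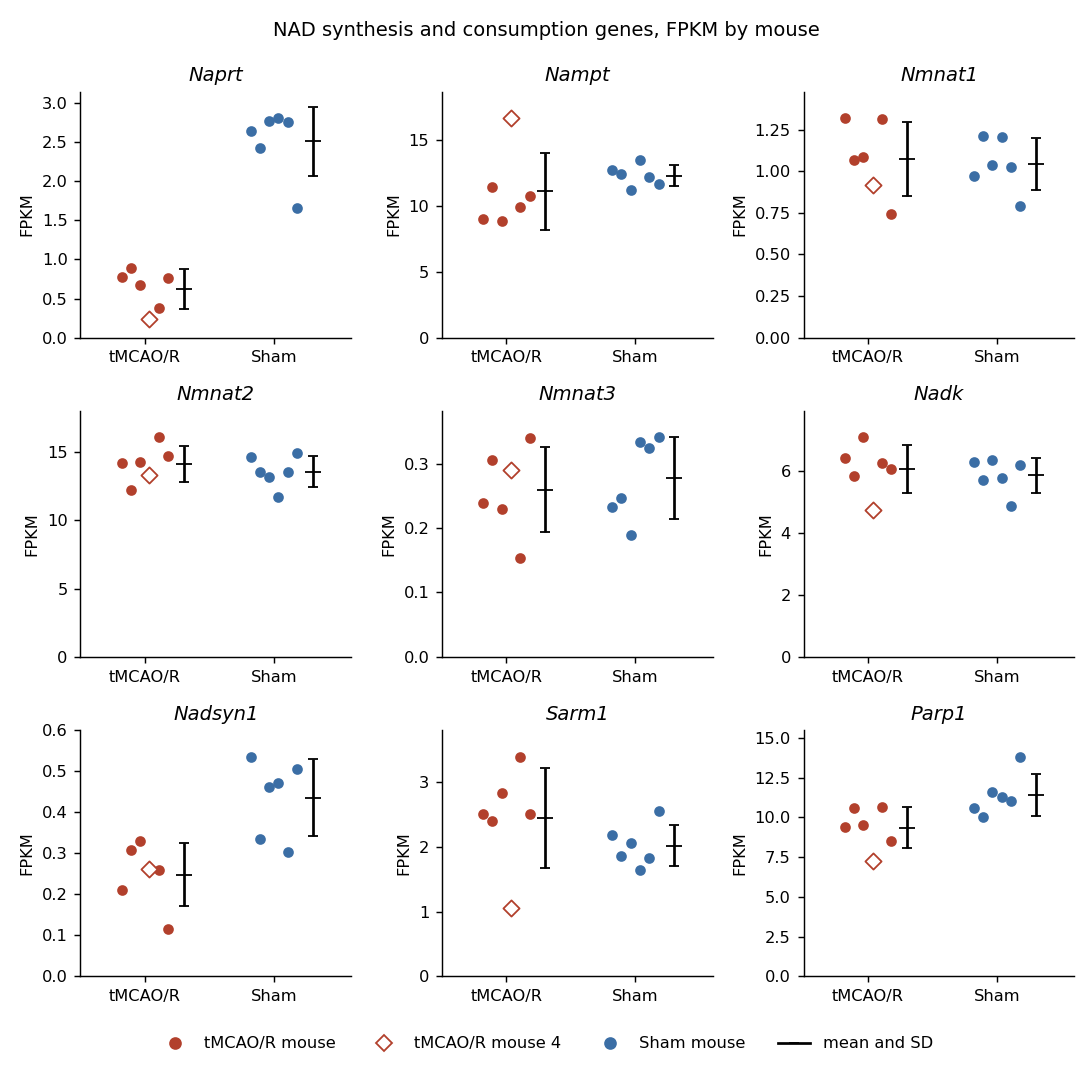
FPKM of the 9 NAD genes in each mouse, tMCAO/R left and Sham right, with the mean and SD beside each group and tMCAO/R mouse 4 as an open diamond. Naprt is the gene whose groups do not overlap, with 0.242 to 0.889 FPKM in tMCAO/R mice and 1.66 to 2.81 FPKM in Sham mice.

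Naprt encodes nicotinic acid phosphoribosyltransferase, which starts the Preiss-Handler route. The gene lies at chr15:75762805-75766413 on the minus strand (GRCm39, GENCODE M39), with 2493 exonic bases in 10 blocks. In tMCAO/R mice 1 to 6 its level was 0.781, 0.889, 0.675, 0.242, 0.385 and 0.769 FPKM. In Sham mice 1 to 6 it was 2.64, 2.43, 2.78, 2.81, 2.76 and 1.66 FPKM. Every tMCAO/R mouse was below the lowest Sham mouse, the lowest level was that of tMCAO/R mouse 4, and Sham mouse 6 was apart from the rest of its group. Of all tested genes, 27.0% had groups that did not overlap, 13.2% with tMCAO/R lower. The mean was 0.624 ± 0.254 FPKM in tMCAO/R mice and 2.51 ± 0.439 FPKM in Sham mice (SD, n = 6 each), so the ratio of the means was 0.248. The difference was -1.12 (SE 0.12), and -1.04 (SE 0.10) without tMCAO/R mouse 4. On fragments, with no 1 added, limma-voom gave -2.08 (SE 0.28). These values rest on 15 to 62 fragments per tMCAO/R library and 107 to 198 per Sham library, and the coefficient of variation was 40.7% in tMCAO/R mice and 17.5% in Sham mice.

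Nadsyn1 encodes NAD synthetase, the last enzyme of the same route (chr7:143349314-143376610, minus strand). Its level was below the minimum for testing. It ran from 0.115 to 0.330 FPKM in tMCAO/R mice (median 0.262) and from 0.304 to 0.536 FPKM in Sham mice (median 0.466). The groups overlapped, although 4 of the 6 tMCAO/R mice were below the lowest Sham mouse. The means were 0.248 ± 0.0771 FPKM in tMCAO/R mice and 0.435 ± 0.0938 FPKM in Sham mice, a ratio of 0.569. Fitted with no minimum, the difference was -0.20 (SE 0.06) and was called, where 16.5% of all genes were called lower (32.0% in either direction). In limma-voom it was -0.84 (SE 0.27) and was not called. Between 16 and 49 fragments per tMCAO/R library and 44 to 84 per Sham library limit this gene to a coarse comparison.

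The Naprt locus is shared with another gene. Eef1d, which encodes a subunit of translation elongation factor 1, lies next to it in tandem on the same strand, and 360 exonic bases of Naprt (14.4% of its exonic length) are also exonic in Eef1d, so fragments there cannot be assigned by strand. How the authors' counting treated such fragments is not given in the sources used here. Eef1d had 1.59 to 3.82 FPKM in tMCAO/R mice (median 3.27) and 4.38 to 5.90 FPKM in Sham mice (median 5.40). It fell in tMCAO/R mice (log2FC -0.67, SE 0.13, adjusted p = 0.000808, limma), with no overlap between the groups. Within each mouse, the log2 ratio of Naprt to Eef1d was -2.36 ± 0.466 in tMCAO/R mice and -1.09 ± 0.158 in Sham mice (SD, n = 6 each). The ratio ran from -3.08 to -1.81 in tMCAO/R mice and from -1.40 to -0.95 in Sham mice, so these groups did not overlap either. The mean difference in this ratio was -1.26, and -1.19 without tMCAO/R mouse 4. The ratio uses the Naprt values by which the gene was chosen, on 15 to 62 fragments per tMCAO/R library. As a ratio of whole genes, it cannot show how fragments in the shared bases were counted.

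**Figure D2:**
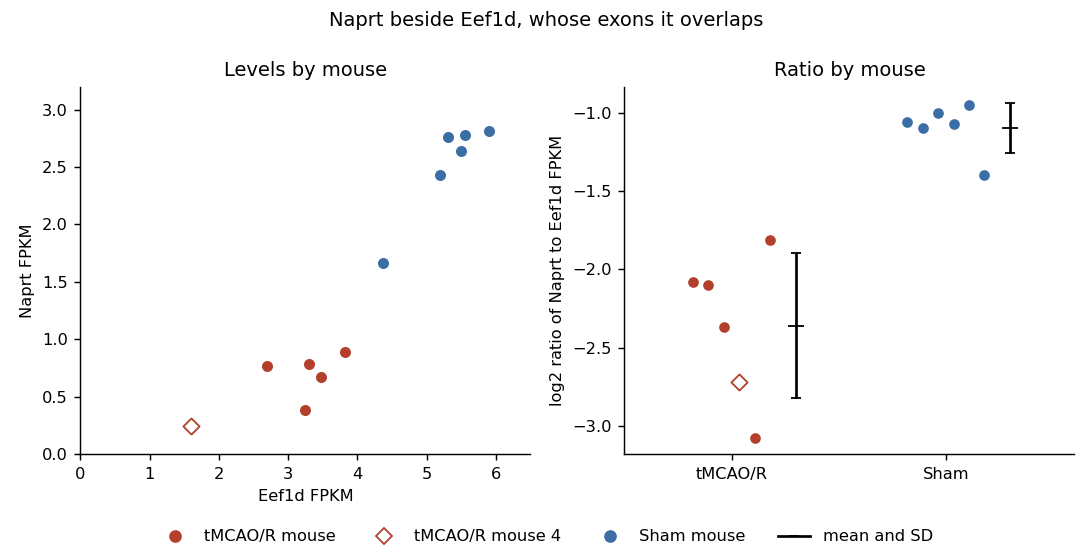
Left, Naprt FPKM against Eef1d FPKM, 1 point per mouse. Right, their log2 ratio within each mouse with the group mean and SD, tMCAO/R left of Sham, where the tMCAO/R mice sit between -3.08 and -1.81 and the Sham mice between -1.40 and -0.95.

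The genes whose profile over the 12 libraries lay nearest to that of Naprt were ranked among 11667 genes by the mean absolute difference of log2(FPKM + 0.1), each gene set to its own Sham mean. The nearest was Rcn3, a calcium-binding protein of the endoplasmic reticulum, at a distance of 0.157 (0.325 ± 0.110 FPKM in tMCAO/R mice, 1.25 ± 0.233 FPKM in Sham mice). Wdr83os (0.186), 2810459M11Rik (0.192), Macrod1 (0.231) and Paqr6 (0.243) followed. The median distance over all genes was 1.07. Eef1d was at 0.592 and ranked 734. Macrod1, which removes ADP-ribose from proteins, is the one of these that also acts in NAD metabolism and is described with its list. This ranking is a description: it uses the comparison by which Naprt was chosen.

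Nampt encodes the rate-limiting enzyme of salvage from nicotinamide (chr12:32869544-32903368, plus strand). In tMCAO/R mice 1 to 6 its level was 8.99, 11.4, 8.84, 16.7, 9.90 and 10.7 FPKM. In Sham mice 1 to 6 it was 12.7, 12.4, 11.2, 13.5, 12.2 and 11.7 FPKM. The highest value of all came from tMCAO/R mouse 4, while 4 of the 6 tMCAO/R mice were below the lowest Sham mouse. The means were 11.1 ± 2.90 FPKM in tMCAO/R mice and 12.3 ± 0.798 FPKM in Sham mice, with a difference of -0.16 (SE 0.13). Without tMCAO/R mouse 4 the tMCAO/R mean was 9.97 ± 1.11 FPKM, and the difference was -0.28 (SE 0.08) and was called. The groups still overlapped, since tMCAO/R mouse 2 was above Sham mouse 3. Nampt is thus a gene whose call depends on 1 library.

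The level of Naprt relative to Nampt sets the nicotinic acid route beside the nicotinamide route within each mouse. The log2 ratio of their FPKM was -4.25 ± 0.997 in tMCAO/R mice (-6.10 to -3.52) and -2.31 ± 0.274 in Sham mice (-2.81 to -2.01), with no overlap. The mean difference was -1.94, and -1.57 without tMCAO/R mouse 4, whose ratio of -6.10 was the lowest and joins the lowest Naprt with the highest Nampt. The ratio uses the Naprt values by which that gene was chosen, so its lack of overlap is a description that follows the difference of Naprt. These are ratios of transcript levels, and enzyme activity and NAD itself were not measured in these libraries.

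**Figure D3:**
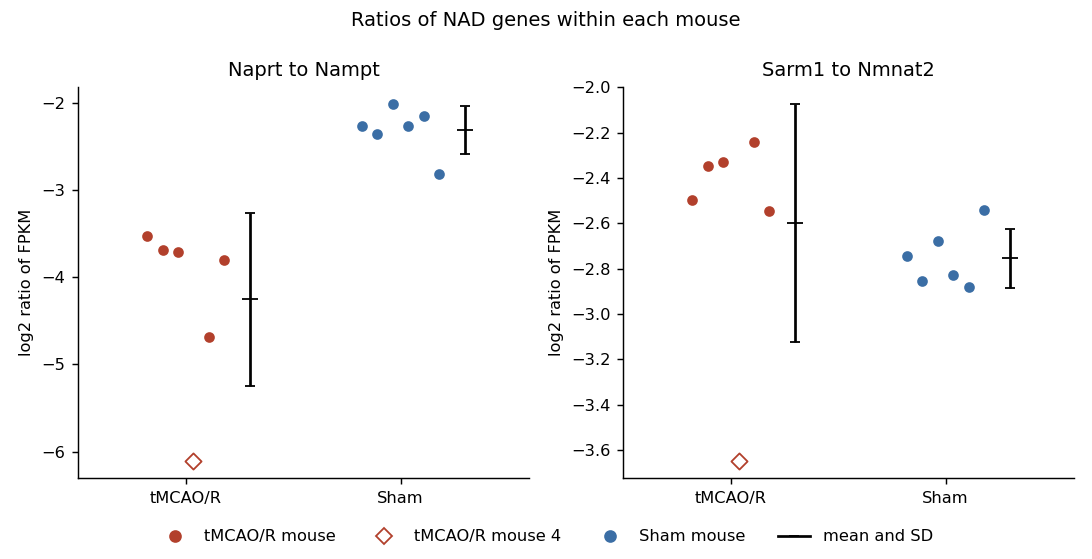
Log2 ratios of FPKM within each mouse, tMCAO/R left of Sham, with the mean and SD of each group and tMCAO/R mouse 4 as an open diamond. For Naprt to Nampt the groups do not overlap (-6.10 to -3.52 in tMCAO/R mice, -2.81 to -2.01 in Sham mice), and for Sarm1 to Nmnat2 tMCAO/R mouse 4, at -3.65, lies below all other mice. The ratio of Naprt to Nampt uses the Naprt values by which that gene was chosen.

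The NMNAT genes encode the enzymes that make NAD from its mononucleotide, in the nucleus (Nmnat1), at the Golgi and in axons (Nmnat2) and in mitochondria (Nmnat3). Nmnat2 (chr1:152830695-152995011, plus strand) had 12.2 to 16.1 FPKM in tMCAO/R mice (median 14.2) and 11.7 to 14.9 FPKM in Sham mice (median 13.5). The groups overlapped over most of their range, and the difference was 0.05 (SE 0.09; means 14.1 ± 1.29 FPKM in tMCAO/R mice and 13.6 ± 1.14 FPKM in Sham mice). Its coefficient of variation was the lowest of the 9 genes in tMCAO/R mice, at 9.16%, and was 8.38% in Sham mice. Nmnat1 (chr4:149552026-149569680, minus strand) had 0.745 to 1.32 FPKM in tMCAO/R mice (median 1.08) and 0.793 to 1.21 FPKM in Sham mice (median 1.03), with a difference of 0.02 (SE 0.08). Nmnat3 (chr9:98169483-98302816, plus strand) was below the minimum, at 0.153 to 0.339 FPKM in tMCAO/R mice and 0.189 to 0.341 FPKM in Sham mice. With 17 to 40 fragments per tMCAO/R library and 23 to 40 per Sham library, limma-voom gave it a difference of -0.10 (SE 0.26), so a change of moderate size in Nmnat3 was not detectable at this depth. Nmnat2 made up 91.3% ± 1.19 of the summed NMNAT FPKM in tMCAO/R mice and 91.0% ± 1.62 in Sham mice. Per kilobase of GENCODE exons in place of the authors' gene lengths, its share was 88.4% to 92.5% in tMCAO/R mice, against 86.9% to 92.2% in Sham mice.

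Nadk encodes the cytosolic NAD kinase, which makes NADP (chr4:155646806-155675465, plus strand). It had 4.76 to 7.09 FPKM in tMCAO/R mice (median 6.17) and 4.86 to 6.36 FPKM in Sham mice (median 5.97). The lowest value was that of tMCAO/R mouse 4, and the groups overlapped. The means were 6.07 ± 0.771 FPKM in tMCAO/R mice and 5.86 ± 0.560 FPKM in Sham mice, with a difference of 0.04 (SE 0.09), and 0.10 (SE 0.08) without tMCAO/R mouse 4.

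Among the consumers, Sarm1 (chr11:78361100-78388641, minus strand) had 2.51, 2.40, 2.83, 1.06, 3.40 and 2.52 FPKM in tMCAO/R mice 1 to 6, and 2.18, 1.87, 2.06, 1.65, 1.83 and 2.55 FPKM in Sham mice 1 to 6. Both the highest and the lowest value were from tMCAO/R mice, the lowest again from tMCAO/R mouse 4. The means were 2.45 ± 0.772 FPKM in tMCAO/R mice and 2.02 ± 0.319 FPKM in Sham mice, and the difference was 0.16 (SE 0.15). Without tMCAO/R mouse 4 the tMCAO/R mean was 2.73 ± 0.405 FPKM and the difference was 0.30 (SE 0.09), which was not called. In limma-voom without that mouse it was 0.43 (SE 0.12) and was called, where 21.1% of all genes were called higher (41.0% in either direction). Sarm1 also shares sequence with a neighbour. On the opposite strand Slc46a1, a folate transporter gene, covers 1786 exonic bases of Sarm1 (19.9% of its exonic length), and a long noncoding RNA, Gm73521, covers 601. The strand setting of the counting is not given in the sources used here, so reads from Sarm1 and Slc46a1 may not have been told apart there. Slc46a1 had 3.22 ± 0.463 FPKM in tMCAO/R mice and 4.09 ± 0.273 FPKM in Sham mice, with a difference of -0.27 (SE 0.09, adjusted p = 0.0163, limma), the opposite sign to that of Sarm1. How far shared reads enter either value was not tested.

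Sarm1 and Nmnat2 act against each other in axons, and their ratio was taken within each mouse. The log2 ratio of Sarm1 to Nmnat2 FPKM was -2.60 ± 0.525 in tMCAO/R mice and -2.75 ± 0.129 in Sham mice. Apart from tMCAO/R mouse 4 (-3.65), the tMCAO/R mice had -2.54 to -2.24 and the Sham mice -2.88 to -2.54, with a small overlap at the edge of the ranges. The mean difference was 0.15, and 0.36 without tMCAO/R mouse 4, so 1 library moved it by more than the whole value.

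Parp1 encodes the main poly(ADP-ribose) polymerase of the nucleus (chr1:180396443-180431307, plus strand). It had 7.29 to 10.7 FPKM in tMCAO/R mice (median 9.48) and 10.0 to 13.8 FPKM in Sham mice (median 11.2). In 4 of the 6 tMCAO/R mice it was below the lowest Sham mouse, and the other 2 were within the Sham range. The means were 9.34 ± 1.29 FPKM in tMCAO/R mice and 11.4 ± 1.31 FPKM in Sham mice, with a difference of -0.27 (SE 0.10), and -0.20 (SE 0.09) without tMCAO/R mouse 4. It was not called at the 0.01 threshold in any of the fits.

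**Figure D4:**
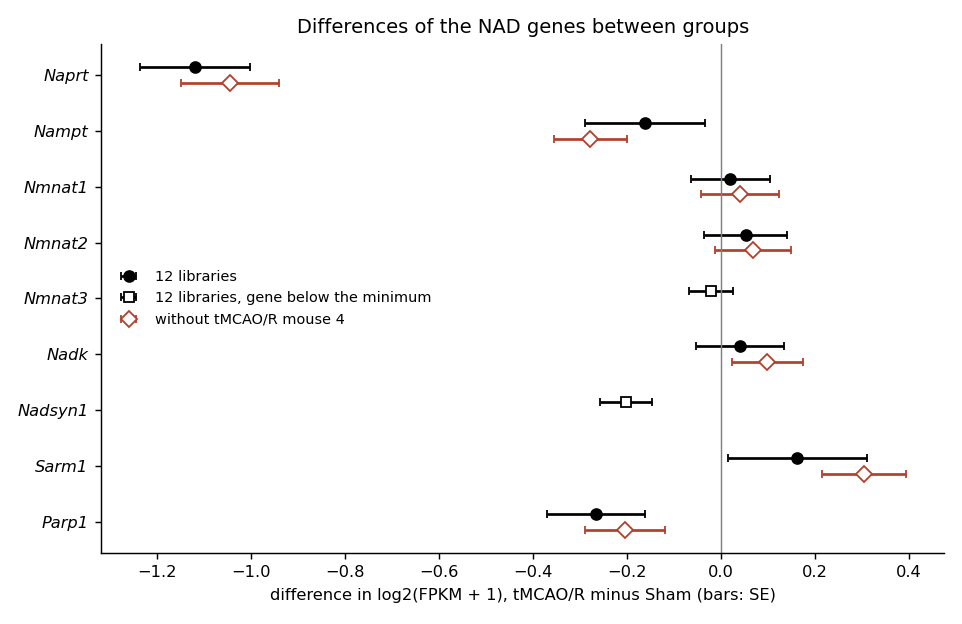
Difference in log2(FPKM + 1) of each NAD gene, tMCAO/R minus Sham, with its SE, for all 12 libraries (filled circles, or open squares for the genes below the minimum, fitted without it) and without tMCAO/R mouse 4 (open diamonds). Naprt is at -1.12, the other genes lie between -0.27 and 0.16, and leaving out mouse 4 moves Nampt to -0.28 and Sarm1 to 0.30.

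The order of the levels within Sham mice does not use the comparison between groups. By mean log2(FPKM + 0.1) it ran Nmnat2, Nampt, Parp1, Nadk, Naprt, Sarm1, Nmnat1, Nadsyn1 and Nmnat3. Nmnat2 was at percentile 86.0 of all genes of the table by Sham mean, Nampt at 84.6, Parp1 at 83.6, Nadk at 71.6, Naprt at 50.8 and Nmnat3 at 11.3. Of the 8 neighbouring pairs, 4 had the same order in all 6 Sham mice: Parp1 above Nadk, Nadk above Naprt, Sarm1 above Nmnat1 and Nmnat1 above Nadsyn1. Each of these had p = 0.03125 in a two-sided exact paired sign-flip permutation test, the smallest that 6 mice allow, and 0.0625 after adjustment over the 8 pairs. The neighbours Nmnat2 and Nampt (exact p = 0.125), Nampt and Parp1 (0.25), Naprt and Sarm1 (0.1875), and Nadsyn1 and Nmnat3 (0.0625) kept their order in 4 or 5 of the 6 mice. Nadsyn1 stood above Nmnat3 by 0.50 ± 0.39 on this scale (SD, n = 6 mice), more than the spread, whereas for the other 3 pairs the mean difference was smaller than its SD. None of these p-values shows that the levels were alike. With fragments per kilobase of GENCODE exons the order was the same and 6 of the 8 pairs held in every Sham mouse (adjusted p = 0.0417 each, exact permutation), Nmnat2 above Nampt and Nadsyn1 above Nmnat3 among them. In tMCAO/R mice the order was Nmnat2, Nampt, Parp1, Nadk, Sarm1, Nmnat1, Naprt, Nmnat3 and Nadsyn1. Naprt there stood below Nmnat1 in 5 of 6 mice, where in Sham mice it stood next to Sarm1 and above Nmnat1.

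The other genes of NAD metabolism and of axon integrity were followed in 9 lists of 97 genes, of which 82 were in the table and 64 were tested. In tMCAO/R mice 12 of the 64 rose and 18 fell (46.9%, against 35.6% of all tested genes). For each list below, the shares over all tested genes are 17.8% called lower and 17.8% called higher. Of all tested genes, 27.0% had groups that did not overlap. A count near these shares does not set a list apart. The median difference was -0.04 over the lists and -0.01 over all tested genes. Without tMCAO/R mouse 4 the lists had 34 called genes, out of the 64 other than Pnp, which no longer reached the minimum. In that fit 43.2% of all tested genes were called.

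In the other routes of synthesis, few genes reached the minimum. Of the 12 genes of the de novo route, 6 were in the table and 2 were tested. Tdo2, the tryptophan dioxygenase that opens it, fell to 0.147 ± 0.0444 FPKM in tMCAO/R mice, against 1.68 ± 0.335 FPKM in Sham mice (log2FC -1.22, SE 0.08, adjusted p = 5.65e-08, limma). Tdo2 reached the minimum through Sham mice alone, as its highest level in tMCAO/R mice was 0.222 FPKM. With no minimum its adjusted p was 8.95e-08 (limma). In mouse brain Tdo2 is known as a transcript of dentate granule cells of the hippocampus, and 11 of the 12 hippocampal markers above were lower too. Whether the tissue taken has a part in the fall of Tdo2 was not tested and cannot be told apart from tMCAO/R. Kyat1, a kynurenine aminotransferase, had 0.740 FPKM in tMCAO/R mice and 0.934 FPKM in Sham mice and did not pass (adjusted p = 0.0998). Of the 11 genes that handle nicotinamide riboside and other precursors, 3 were tested. Nmrk1, the nicotinamide riboside kinase, fell to 0.277 ± 0.142 FPKM in tMCAO/R mice, against 0.832 ± 0.156 FPKM in Sham mice (log2FC -0.52, SE 0.08, adjusted p = 0.000134), and its groups did not overlap. It too reached the minimum mainly through Sham mice, with 0.121 to 0.509 FPKM in tMCAO/R mice. With no minimum its adjusted p was 0.000136 (limma). Pnp (log2FC -0.13) and the nucleoside transporter gene Slc29a2 (-0.11) did not pass. Nt5e, the ectonucleotidase CD73, was below the minimum, with 1.10 ± 0.491 FPKM in tMCAO/R mice and 0.332 ± 0.0916 FPKM in Sham mice. In limma-voom it was called higher (1.65, SE 0.34, adjusted p = 0.000961), so the precursor genes did not all move one way.

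Of the 7 tested genes of NADP, mitochondrial NAD and repair, 3 fell. Naxe, the epimerase that repairs hydrated NADH, had 37.9 ± 12.9 FPKM in tMCAO/R mice and 72.8 ± 9.09 FPKM in Sham mice (ratio of means 0.520, adjusted p = 0.00156, limma). Its partner Naxd, the dehydratase, fell as well (log2FC -0.62, adjusted p = 0.0032), and so did Nudt13, a NADH hydrolase (-0.49, adjusted p = 0.000152). Slc25a51, the mitochondrial NAD carrier, had 8.75 ± 0.584 FPKM in tMCAO/R mice and 7.08 ± 0.712 FPKM in Sham mice and did not pass (log2FC 0.27, adjusted p = 0.0139). Nadk2, the mitochondrial kinase, did not pass either (0.11).

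Among the other ADP-ribosyltransferases, 8 were tested, of which 3 rose and 2 fell. Tiparp, a mono-ADP-ribosyltransferase induced by the aryl hydrocarbon receptor, rose to 4.89 ± 1.35 FPKM in tMCAO/R mice, against 2.57 ± 0.333 FPKM in Sham mice (log2FC 0.70, SE 0.13, adjusted p = 0.000477, limma). The tankyrases Tnks (log2FC 0.56) and Tnks2 (0.51, adjusted p = 0.00201) rose. Parp8 (-0.46) and Parp12 (-0.44) fell, and Parp6 did not pass (0.16). The list of PARP1 cofactors and of enzymes that remove ADP-ribose had 8 tested genes, of which 4 fell and 1 rose. Macrod1 had 7.72 ± 2.68 FPKM in tMCAO/R mice and 23.3 ± 3.79 FPKM in Sham mice (log2FC -1.53, SE 0.20, adjusted p = 2.62e-05), with no overlap. Oard1, which takes ADP-ribose off glutamate (log2FC -0.72, adjusted p = 0.000878), Hpf1, the partner with which PARP1 modifies serine (-0.47, adjusted p = 0.00291), and the repair scaffold Xrcc1 (-0.46, adjusted p = 0.00965) fell, while Macrod2 rose (0.41, adjusted p = 0.00741). The calls of Xrcc1 and Macrod2 were close to the threshold: each was lost in 8 of the 12 fits that leave out 1 library (adjusted p up to 0.0232 and 0.0202), and Xrcc1 was not called in limma-voom (adjusted p = 0.0103). Adprh, the most abundant of the list, had 26.8 ± 4.29 FPKM in tMCAO/R mice and 34.4 ± 2.89 FPKM in Sham mice and did not pass (adjusted p = 0.018). Without tMCAO/R mouse 4 it did, with an adjusted p of 0.00986.

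Sirtuins use NAD to remove acyl groups from proteins. Of 7 tested, 2 fell, where 17.8% of all tested genes fell. They were Sirt5, the mitochondrial desuccinylase (log2FC -0.34, SE 0.06, adjusted p = 0.00036, limma), and Sirt7, of the nucleolus (-0.54, adjusted p = 0.000945). Sirt2, the most abundant, had 10.3 ± 2.32 FPKM in tMCAO/R mice and 12.5 ± 1.44 FPKM in Sham mice and did not pass. Sirt6 (-0.42, adjusted p = 0.037, and -0.26, adjusted p = 0.0101, without tMCAO/R mouse 4), Sirt1 (-0.03) and Sirt3 (-0.06) did not pass either. The groups of Sirt6 did not overlap, with 0.805 to 2.92 FPKM in tMCAO/R mice and 3.00 to 3.72 FPKM in Sham mice. Of the NAD glycohydrolases and ectoenzymes, Cd38 was the one tested. It fell to 0.836 ± 0.125 FPKM in tMCAO/R mice, against 1.77 ± 0.533 FPKM in Sham mice (log2FC -0.57, SE 0.11, adjusted p = 0.000681), with no overlap between the groups.

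For the genes around SARM1 and axon loss, 16 genes of axon degeneration signalling were tested, of which 4 rose and 3 fell. Of all tested genes, 35.6% were called in either direction. Mapk8, which encodes the kinase JNK1, had 6.27 ± 1.46 FPKM in tMCAO/R mice and 3.32 ± 0.383 FPKM in Sham mice (log2FC 0.73, SE 0.12, adjusted p = 0.000154, limma). Mapk9, for JNK2, also rose (0.57, adjusted p = 0.000176), and for both the groups did not overlap. Fbxo45, a subunit of the ubiquitin ligase that turns over NMNAT2, rose (0.41, adjusted p = 0.000762), while the ligase gene Mycbp2 (-0.17) and Skp1 (-0.25, adjusted p = 0.0598) did not pass. Skp1 passed without tMCAO/R mouse 4 (adjusted p = 0.0045). Stmn2, an axonal microtubule regulator, rose to 74.8 ± 13.6 FPKM in tMCAO/R mice, against 52.6 ± 6.15 FPKM in Sham mice (log2FC 0.49, adjusted p = 0.00455). The call of Stmn2 was lost when any 1 of Sham mice 3, 4 and 5 was left out (highest adjusted p = 0.0126). The JNK kinase gene Map2k7 (-0.45), the calpain gene Capn1 (-0.47) and its small subunit Capns1 (-0.55) fell. The upstream kinase genes Map3k12 (0.30, adjusted p = 0.0631) and Map3k13 (0.21), for DLK and LZK, did not pass, but Map3k12 was called higher without tMCAO/R mouse 4 (adjusted p = 0.000835).

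Of the 12 axon cytoskeleton genes, 4 rose and 1 fell, where 35.6% of all tested genes were called in either direction. Gap43, a growth cone protein, had 133 ± 25.2 FPKM in tMCAO/R mice and 70.2 ± 16.9 FPKM in Sham mice (log2FC 0.92, SE 0.16, adjusted p = 0.000282, limma). The kinesin gene Kif5c had 106 ± 4.56 FPKM in tMCAO/R mice and 67.2 ± 10.4 FPKM in Sham mice (0.67, adjusted p = 0.000126). Dync1h1 (0.42) and Ank3 (0.36) rose, and Nefl, the neurofilament light chain, fell (-0.61, adjusted p = 0.00272). Tubb3 had 176 ± 42.1 FPKM in tMCAO/R mice and 119 ± 10.6 FPKM in Sham mice and did not pass (0.52, adjusted p = 0.0129), but passed without tMCAO/R mouse 4 (adjusted p = 0.000153). Kif5a (0.18), Nefm (0.25), Nefh (0.20) and Mapt (-0.04) did not pass. Tubb3, Stmn2 and Nefl are also in the neuronal marker list, and the summed markers of the striatum and of the cerebral cortex did not overlap between the groups, with all tMCAO/R mice above the Sham mice. Whether the tissue taken has a part in the differences of the axon genes was not tested.

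**Figure D5:**
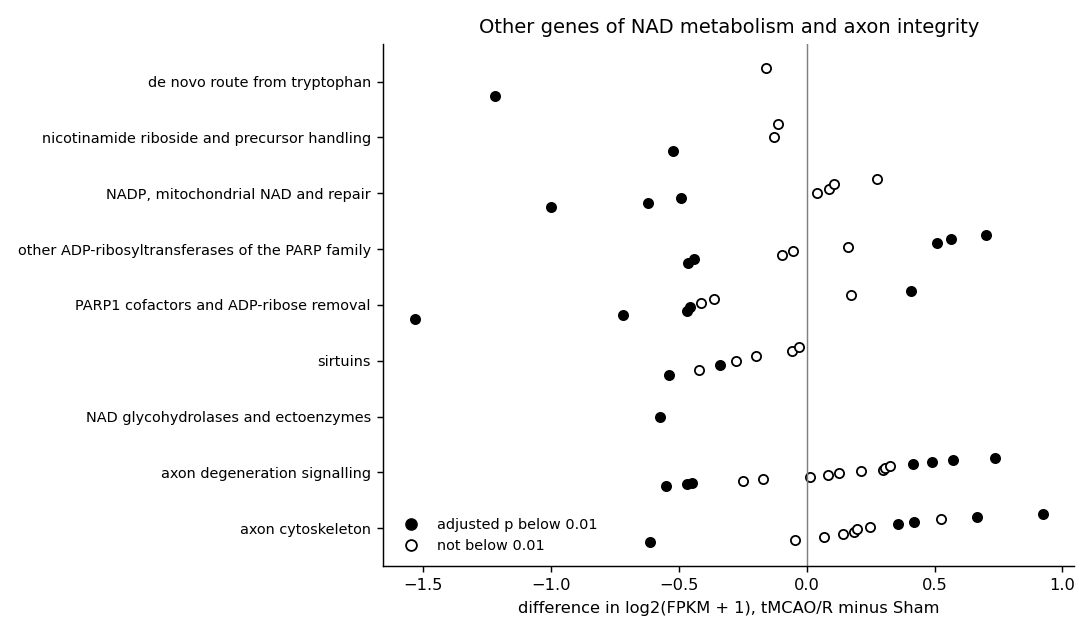
Difference in log2(FPKM + 1), tMCAO/R minus Sham, of the 64 tested genes in the 9 lists, 1 row per list, filled where the adjusted p is below 0.01. Macrod1, at -1.53, and Tdo2, at -1.22, lie farthest to the left, and Gap43, at 0.92, farthest to the right.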

How the data were processed

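The deposited values are FPKM, 1 column per library. Per the processing notes and the paper, the authors trimmed reads with fastp, aligned them to GRCm39 with HISAT2 2.2.1, counted with HTSeq 2.0.2 and used DESeq2 1.24.0. The annotation release, strand setting and gene filter are not given in the sources used here. Within each gene the FPKM were whole multiples of 1 fragment (14317 genes, tolerance 1e-05), which gave the fragments and library totals. Replicates are separate mice.

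For the comparison of the groups, log2(FPKM + 1) was fitted with limma 3.58.1 (trend, R 4.3.3). P-values were adjusted by Benjamini-Hochberg over all 11743 tested genes, with a threshold of 0.01. The main fit used a log scale because the deposited values are FPKM, and limma-voom on the recovered fragments was run as an alternative. limma-voom took genes with at least 10 fragments in 6 libraries. The tests were checked on simulated data. Genes were placed on GENCODE M39 (14315 matched), and near-identical sequences (95% over 300 bases) were searched with BLAST 2.17.0. Ratios and exact tests used Python 3.11.15, numpy 2.4.6, pandas 2.3.3 and scipy 1.17.1. Alternatives covered the pseudocount (0.1, 0.5), the minimum, quantile normalization, the threshold (0.05), the replicate number as a block and each library left out; limma-voom without tMCAO/R mouse 4 and GENCODE lengths were added after seeing the data.

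The 9 genes and all lists were chosen with earlier results of these data known. From each list up to 4 tested genes were named (the 2 smallest p, the 2 highest means) and the 5 nearest to Naprt; further list members named in the text were chosen after their values were seen.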

Additional observations from a re-analysis of the deposited data

Results flagged for a closer look

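Of 32 groups of 6 values examined (each NAD gene, the overlapping genes and the ratios, by group), 4 held a mouse farther from the others than Dixon's 95% critical value for 6 values (0.625). By chance, about 5% of groups pass this value. In tMCAO/R mice the Nampt level of mouse 4 was 16.7 FPKM, against 8.84 to 11.4 FPKM in the other tMCAO/R mice. In the same mouse the log2 ratio of Sarm1 to Nmnat2 was -3.65, against -2.54 to -2.24 in the others. In Sham mice the Naprt level of mouse 6 was 1.66 FPKM, against 2.43 to 2.81 FPKM in the other Sham mice. Its log2 ratio of Naprt to Eef1d was -1.40, against -1.10 to -0.95 in the others. The values of Sham mouse 6 stayed above those of every tMCAO/R mouse for both measures.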

How the results depend on the processing

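The Naprt difference of -1.12 kept its sign and its call in every alternative that was run, and its size followed the scale: -1.93 with log2(FPKM + 0.1), -1.44 with log2(FPKM + 0.5), -2.08 with limma-voom and -1.86 with limma-voom without tMCAO/R mouse 4. With each library left out in turn it ran from -1.20 to -1.04. Since Naprt was chosen by its difference in these same libraries, the call it keeps in refits of them is a description and no further support. Of the 8 other genes, 0 were called on all 12 libraries with limma, against 1 with no minimum (Nadsyn1), 1 without tMCAO/R mouse 4 (Nampt) and 2 in limma-voom without that mouse (Nampt and Sarm1); over the libraries left out this count was 0 to 1. Genes called among all tested ran from 3249 to 5025 with a library left out, and called list genes from 26 to 34. The replicate numbers do not pair the mice: 1 of 6 same-numbered pairs correlated above 0.1 (range -0.12 to 0.22). With the number as a block, 3460 genes were called against 4180 without it, and 25 list genes against 30. The 5 list genes that lost their call with the block were Parp12 (adjusted p = 0.0135), Tnks2 (0.0108), Xrcc1 (0.0118), Macrod2 (0.0228) and Stmn2 (0.0189), all with limma. Without tMCAO/R mouse 4, 4 list genes gained a call (Adprh, Map3k12, Skp1 and Tubb3). The lowest depth in tMCAO/R mice is that of Naprt, Nadsyn1 and Nmnat3, with fewer than 100 fragments in each tMCAO/R library. Nmnat1 was low as well, with 59 to 111 fragments per tMCAO/R library and 61 to 99 per Sham library. Its difference in limma-voom was 0.03 (SE 0.19).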
